A study of Mus musculus with 4 samples.

Results

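CC chemokine ligands were followed through the myeloid cells of the atherosclerotic mouse aorta. The 10 genes, Ccl2, Ccl7, Ccl12, Ccl8, Ccl3, Ccl4, Ccl5, Ccl6, Ccl9 and Ccl24, were taken by name from a table of 18825 genes that lists 19 genes of CC ligands. All 10 were found. They were chosen by name, though with earlier results of these data known. The cells were live CD45+ leukocytes from aortas of Apoe-/- mice, which lack apolipoprotein E and develop atherosclerosis, after 13 weeks on a western diet. Every animal carried this genotype and this diet, so there was no healthy or treated group. The labels give neither age nor sex. The series text names 6 mice, and how they were pooled into the 2 biological replicates, each sequenced as 2 libraries (1-1 and 1-2, 2-1 and 2-2), is not stated. What was compared is therefore the 14 clusters of cells, numbered 0 to 13 by the authors, with each ligand summed per cluster and biological replicate.

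CC chemokines are small secreted proteins that guide leukocytes by binding G protein-coupled receptors on the cells they attract. Ccl2, Ccl7, Ccl12 and Ccl8 are monocyte chemoattractants, of which Ccl2 and Ccl7 act through Ccr2, the receptor that brings monocytes into inflamed tissue. Ccl3 and Ccl5 act on Ccr1, and Ccl4 is closely related to Ccl3. Ccl6 and Ccl9 are rodent ligands of Ccr1, and Ccl24 is an eotaxin that acts on Ccr3. In atherosclerosis the family is known for the recruitment of monocytes to the plaque.

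The genes fall into 2 groups on mouse chromosome 11 and 1 gene on chromosome 5 (GENCODE annotation, GRCm38). Ccl2 (82035571 to 82037453), Ccl7, Ccl12 (82101845 to 82103400) and Ccl8 (82115185 to 82116799) follow in this order on the plus strand. A gap of 1409 kb separates them from Ccl5, Ccl9, Ccl6 and Ccl3 on the minus strand and Ccl4 on the plus strand. Only the 10 genes were placed, so genes called neighbours are neighbours among the 10, and other genes may lie between them. Ccl24 lies on chromosome 5 (135569937 to 135573049, minus strand). Promoter sequences for 5 of the 10 genes were in the RefSeq table used (GRCm38.p6), namely Ccl12, Ccl8, Ccl3, Ccl6 and Ccl9. Those of 2 pairs of close neighbours are shown, because Ccl6 and Ccl9 had their highest level in the same cluster while Ccl12 and Ccl8, also neighbours, had their highest levels in different clusters. Each is the 250 bases before the transcription start, 5′ to 3′ on the strand of the gene, with matches to the motifs named below in capitals.
Ccl12, chr11:82101595-82101844, plus strand: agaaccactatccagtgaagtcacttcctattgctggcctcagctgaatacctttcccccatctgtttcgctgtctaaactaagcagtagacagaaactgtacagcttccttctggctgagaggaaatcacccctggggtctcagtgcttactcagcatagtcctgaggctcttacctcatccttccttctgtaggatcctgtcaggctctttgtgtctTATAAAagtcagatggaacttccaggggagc
Ccl8, chr11:82114935-82115184, plus strand: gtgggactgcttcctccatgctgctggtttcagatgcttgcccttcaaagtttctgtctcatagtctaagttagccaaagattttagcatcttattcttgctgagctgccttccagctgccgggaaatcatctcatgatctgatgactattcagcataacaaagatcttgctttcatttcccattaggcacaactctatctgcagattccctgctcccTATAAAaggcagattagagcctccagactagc
Ccl6, chr11:83593088-83593337, minus strand: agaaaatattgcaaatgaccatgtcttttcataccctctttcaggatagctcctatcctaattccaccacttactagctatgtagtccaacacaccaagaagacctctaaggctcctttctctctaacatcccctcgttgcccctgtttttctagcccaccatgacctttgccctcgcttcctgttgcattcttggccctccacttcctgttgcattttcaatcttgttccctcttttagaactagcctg
Ccl9, chr11:83578637-83578886, minus strand: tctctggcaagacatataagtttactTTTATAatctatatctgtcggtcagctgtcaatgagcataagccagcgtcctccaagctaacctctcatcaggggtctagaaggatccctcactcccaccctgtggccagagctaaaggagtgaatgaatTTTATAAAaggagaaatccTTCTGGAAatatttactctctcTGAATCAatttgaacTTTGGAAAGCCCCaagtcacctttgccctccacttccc
The promoters were searched on both strands for TATAAA (the TATA box), TGANTCA (AP-1), TTNNGNAA (C/EBP), the interferon-stimulated response element and the kappaB motif. TATAAA was at -31 to -26 in Ccl12 and at -32 to -27 in Ccl8, counted from the transcription start, and was held by 12.4% of 32851 mouse promoters of the same length. In Ccl9 TATAAA was at -92 to -87, beside matches on the opposite strand. The kappaB motif was found in Ccl9 alone among the 5, at -35 to -26 (7.25% of all promoters), where it overlapped a C/EBP match at -38 to -31. Ccl9 also held TGAATCA, an AP-1 match, at -53 to -47 (6.75% of all promoters) and a further C/EBP match at -75 to -68. C/EBP matches were in 36.8% of all promoters and in Ccl9 and Ccl3 here, and the interferon element, in 2.98% of all promoters, was in none of the 5. Ccl6 held no match in this window. The promoters of Ccl6 and Ccl9 were identical at 47.2% of aligned positions, gaps counted, and those of Ccl12 and Ccl8 at 55.6%. These matches are letters in a window and were not measured as binding.

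Across 3002 cells the deposited table counted 15893384 UMIs (unique molecular identifiers, each standing for 1 captured transcript). The libraries held 236 to 1231 cells and 1698585 to 5954716 UMIs, of which the 10 ligands made up 0.735% to 0.917%, and no cell barcode was shared between libraries. Clusters were named from marker genes other than these ligands. Cluster 0 was resident-macrophage-like, 4 cDC2-like, 5 monocyte-like, 7 neutrophil-like, 8 foamy-macrophage-like, 11 cDC1-like, 12 mature-dendritic-like and 13 cavity-macrophage-like. Cluster 1 carried macrophage genes with no subtype, and cluster 2 had 9 of 10 resident and 6 of 9 inflammatory markers at a level at least 2 times that of the other clusters. Cluster 6 held cycling cells beside T and NK cell genes, cluster 9 fibroblast genes, and cluster 10, with T and NK and mast cell genes, stayed unnamed. Cluster 3 was left unnamed as well: 7 of 10 resident markers passed, but haemoglobin genes led it, with summed erythroid markers at 27912 CPM in replicate 1 against 42.4 in replicate 2 (CPM is UMIs per 1000000 UMIs). Erythroid markers were uneven elsewhere too. Cluster 7 had 16274 CPM of them in replicate 1 against 11.2 in replicate 2, cluster 0 had 3586 against 17.3, and cluster 1 had 33.3 against 4746. Their part in the results was not tested. Clusters 3, 8 and 10 were shallow, with a median of 834, 980 and 805 UMIs per cell against 4196 to 6672 per library. Cluster 7 had a median of 1601, and 35.2% of its cells reached 2000 UMIs.

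**Figure D1:**
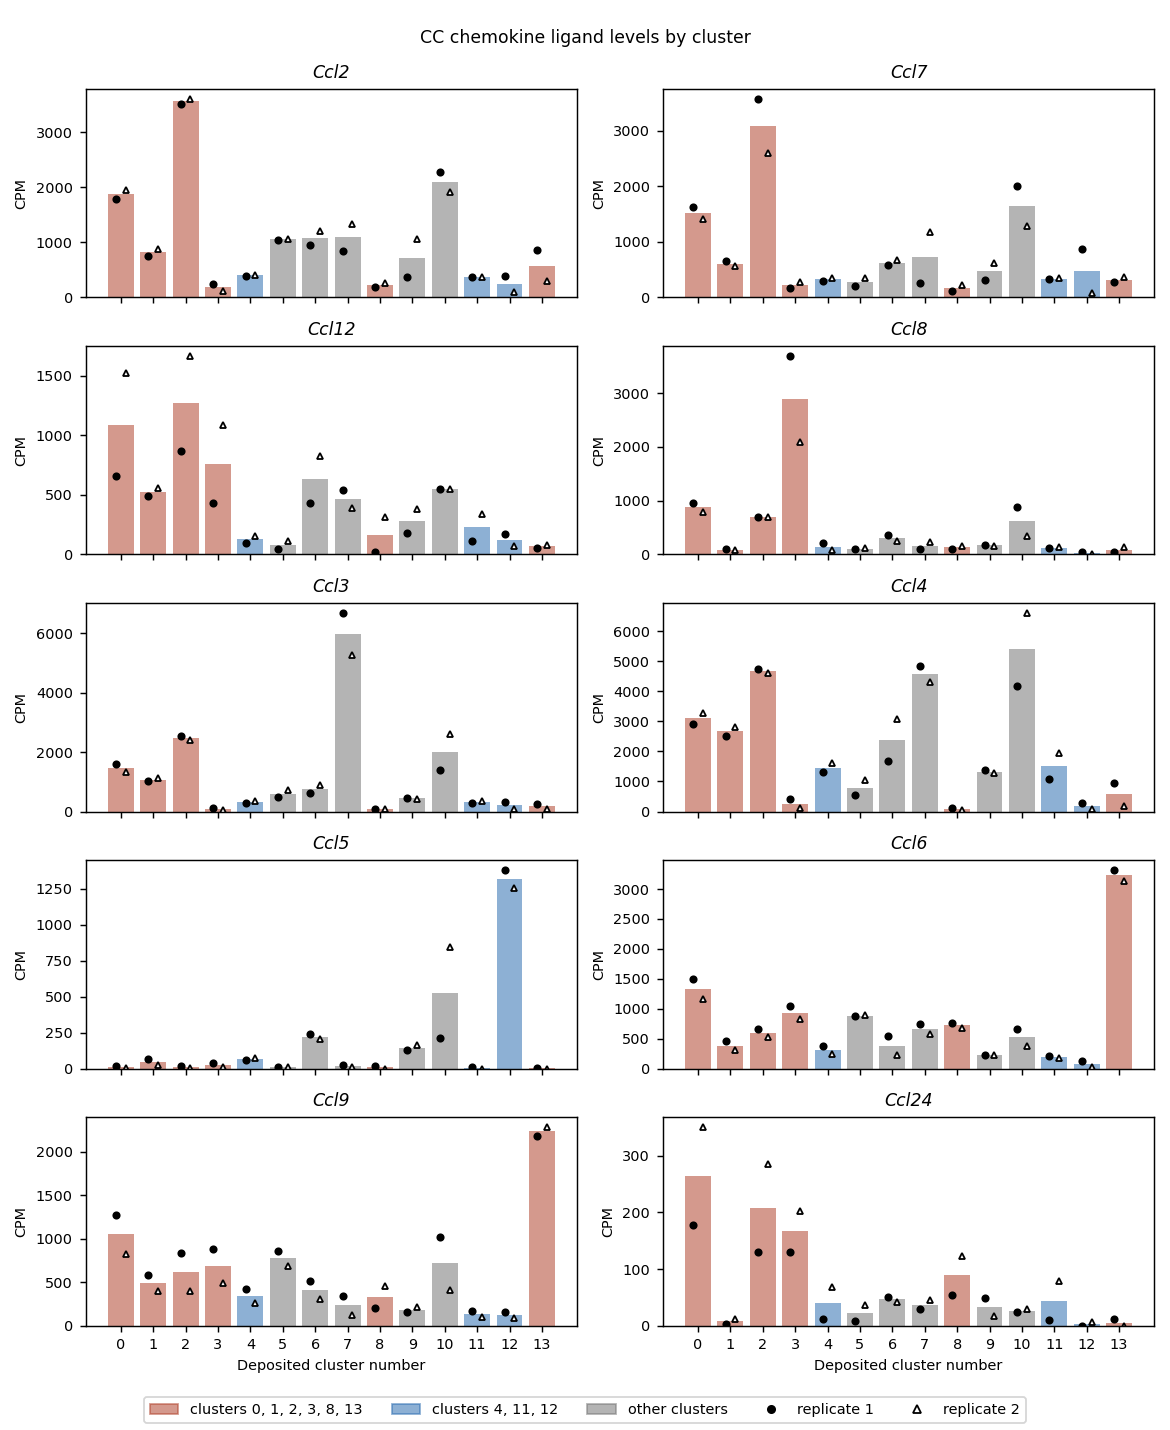
Level of each ligand gene (y axis, CPM of summed UMIs) in the 14 deposited clusters (x axis); bars are means of the 2 biological replicates, filled circles replicate 1 and open triangles replicate 2. Ccl2 and Ccl7 peak in cluster 2, Ccl8 in cluster 3, Ccl3 in cluster 7, Ccl5 in cluster 12, and Ccl6 and Ccl9 in cluster 13.

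Levels are given in CPM, the UMIs of a gene per 1000000 UMIs of the cluster in that replicate, for replicate 1 and then replicate 2. Different ligands had their highest level in different cells. It was cluster 2 for Ccl2, Ccl7 and Ccl12, cluster 3 for Ccl8, cluster 7 for Ccl3, cluster 10 for Ccl4, cluster 12 for Ccl5, cluster 13 for Ccl6 and Ccl9, and cluster 0 for Ccl24. Cluster 0, the largest with 635 cells, held 30.9% of all UMIs of the 10 ligands, and cluster 2, with 347 cells, held 21.9%. The 10 genes made up 1.76% and 1.68% of all UMIs of cluster 2 but 0.166% and 0.233% of those of cluster 8.

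The monocyte chemoattractant Ccl2 reached 3515 and 3611 CPM in cluster 2. The next values were 2288 and 1915 CPM (cluster 10), then 1792 and 1955 (cluster 0), which overlapped each other and stayed below both values of cluster 2. Clusters 7, 6 and 5 followed with overlapping values and means of 1096, 1071 and 1058 CPM. The dendritic clusters 4, 11 and 12 had means of 401, 376 and 251 CPM, and cluster 3 was lowest with 244 and 123. Ccl7, another ligand of Ccr2, gave 3577 and 2608 CPM in cluster 2. Cluster 10 had 2002 and 1277 CPM of it and cluster 0 had 1619.6 and 1413. Below these 3 clusters the Ccl7 values of all neighbours in the order overlapped, down to 109 and 218 CPM for cluster 8.

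Ccl12, a mouse monocyte chemoattractant related to Ccl2, was also highest in cluster 2, at 871 and 1669 CPM. Cluster 0 had 659 and 1523 CPM, and cluster 3 had 431 and 1084. Replicate 2 was higher in each of them, and from 1 cluster to the next the 7 highest clusters overlapped. The monocyte-like cluster 5 had 46.8 and 116 CPM, and cluster 13 had the lowest mean with 51.6 and 82.2. Ccl8 was ordered otherwise. Its replicate values were 3695 and 2093 CPM (cluster 3), 965 and 784 (cluster 0) and 701 and 693 (cluster 2), with no overlap among these neighbours. Cluster 1, macrophages without the resident markers, had 102 and 76.2 CPM of Ccl8, and cluster 12 was lowest with 48.0 and 13.3.

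Ccl3 and Ccl4, known as macrophage inflammatory proteins 1 alpha and 1 beta, had high levels in the neutrophil-like cluster 7. Ccl3 gave 6684 and 5269 CPM there. Both values lay above the 2537 and 2399 CPM of cluster 2 and the 1406 and 2611 of cluster 10. Cluster 0 had 1609.8 and 1336 CPM of Ccl3, cluster 1 had 1023 and 1116, and cluster 3 was lowest with 114 and 42.4. For Ccl4, clusters 10, 2 and 7 overlapped, with 4194 and 6616, 4737 and 4612, and 4859.7 and 4307 CPM in that order. Cluster 0 came next with 2931 and 3293 CPM, and cluster 8 was lowest with 109 and 40.95.

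Ccl5, a chemoattractant of T cells and monocytes that T and NK cells themselves make, was the sparsest of the 10 with 1158 UMIs in 174 cells. The mature-dendritic-like cluster 12 had 1379 and 1256 CPM, above every other cluster. Its 4 libraries differed, with 3054 CPM in library 1-1, 525 in 1-2, 1096 in 2-1 and 1318 in 2-2. Its mean moved from 1318 CPM to 890.5 without library 1-1, to 2155 without library 1-2 and to 896 without the cell with the most Ccl5 UMIs. Cluster 10 had 214 and 841 CPM, cluster 6 had 238 and 203, and cluster 9 had 126 and 162. In all other clusters the mean was 66.7 CPM or less.

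**Figure D2:**
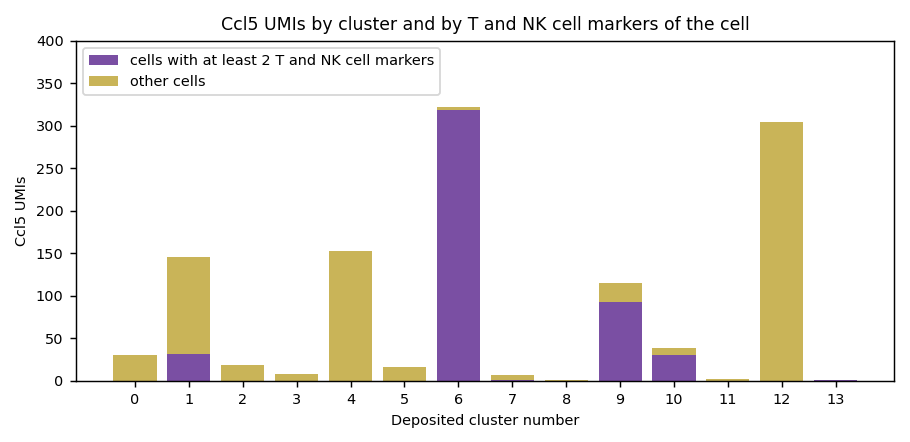
Ccl5 UMIs (y axis, summed over all libraries) in each deposited cluster (x axis), split by whether the cell had at least 2 of 11 T and NK cell marker genes. In cluster 6, 318 of 322 Ccl5 UMIs are in such cells, and in cluster 12 none of 304.

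In 3 of these clusters the Ccl5 transcripts sat in cells that also had T and NK cell genes, a split made after the values were seen. In cluster 6, 43 of 135 cells had UMIs of at least 2 of 11 T and NK cell markers, and these cells held 318 of the 322 Ccl5 UMIs (98.8%). The corresponding shares were 80.0% in cluster 9, where 6 cells held 92 of 115 UMIs, and 78.9% in cluster 10, where 6 cells held 30 of 38. In cluster 1 a lone cell of this kind held 31 of 145 Ccl5 UMIs. Without such cells the mean Ccl5 level of cluster 6 moved from 220.4 to 3.61 CPM that of cluster 9 from 144 to 29.2 and that of cluster 10 from 528 to 119.7. Cluster 12 had no cell with 2 of these markers, and its level stayed as it was.

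Ccl6 and Ccl9, rodent ligands of Ccr1, peaked together in the cavity-macrophage-like cluster 13. Ccl6 gave 3318 and 3139 CPM there, followed by 1489 and 1162 in the resident-macrophage-like cluster 0. Clusters 3 and 5 overlapped at 1049.8 and 820.3, and at 873 and 889 CPM. The lowest were the dendritic clusters 11 and 12, with 205 and 183 CPM and with 132 and 33.2. Ccl9 gave 2184 and 2285 CPM in cluster 13, and 1269 and 829 in cluster 0. From cluster 0 downwards all neighbours of Ccl9 overlapped, to 156 and 93.0 CPM in cluster 12.

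Ccl24, an eotaxin, had low levels and a narrow pattern. Cluster 0 had 179 and 351 CPM, cluster 2 had 130.2 and 285, and cluster 3 had 130.2 and 203, and the 3 overlapped. Cluster 8 followed with 54.6 and 123 CPM, all of it from 12 UMIs, of which 1 cell held 9. Cluster 1 had 3.57 and 12.1 CPM. Of all Ccl24 UMIs, 56.1% were in cluster 0.

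Shares of positive cells, meaning cells with at least 1 UMI, were compared after each cell had been thinned to 500 UMIs, which kept all cells. Ccl2 was then found in 63.3% and 60.3% of the cells of cluster 2 and in 40.8% and 32.3% of those of cluster 0. Without thinning these shares were 89.9% and 87.8%, and 72.7% and 74.2%. No cluster is known to lack these ligands, so cluster 9, with fibroblast genes and a median of 8212 UMIs per cell, and cluster 12, with 5177, serve as a reference: Ccl2 was found in 20.4% and 2.27% of their cells at 500 UMIs. Ccl3 was positive in 65.9% and 50% of the thinned cells of cluster 7, and Ccl8 in 33.9% and 32.8% of those of cluster 3. Ccl6 was positive in 85.7% and 84.6% and Ccl9 in 78.6% and 76.9% of the thinned cells of cluster 13, and every cell of that cluster had both before thinning. In cluster 12, Ccl5 was positive in 23.5% and 44.4% of thinned cells and in 47.1% and 74.1% without thinning. Free RNA in the droplets can add UMIs to cells that do not express a gene, and its share was not measured here.

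Within clusters the transcripts were unevenly spread. The tenth of the cells with the most UMIs of a ligand held 37.3% of the Ccl2 UMIs of cluster 2 and 71.3% of the Ccl8 UMIs of cluster 3, against 22.9% for Ccl6 in cluster 13. In several small clusters 1 cell held most of a ligand's UMIs. This was 85.7% of Ccl7 and 67.3% of Ccl2 in cluster 12, 79.2% of Ccl12 in cluster 8, 65.3% of Ccl8 in cluster 10 and 58.8% of Ccl7 in cluster 7. Thinned to 2000 UMIs, which kept 2357 cells, a cell of cluster 2 had UMIs of 5.23 and 4.86 of the 10 ligands on average and one of cluster 0 had 4.68 and 4.55. In cluster 1 the mean was 3.25 and 2.89, in cluster 12 it was 1.38 and 1.00. At least 6 ligands were present in 40.7% of the cells of cluster 2, in 27.9% of cluster 0 and in 8.06% of cluster 1.

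The clusters were then compared with edgeR's quasi-likelihood test on the summed counts, in 8 comparisons over 6657 genes, all 10 ligands among them. The authors drew the clusters from these same counts, so the p-values are too small and describe the clusters. A gene is called when its Benjamini-Hochberg adjusted p is below 0.05, log2 fold changes are given with their SE, and levels with their SD over the 2 replicates. The libraries of a replicate may come from the same animals, so the spread may be partly technical. Comparisons that use the same clusters share their cells.

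**Figure D3:**
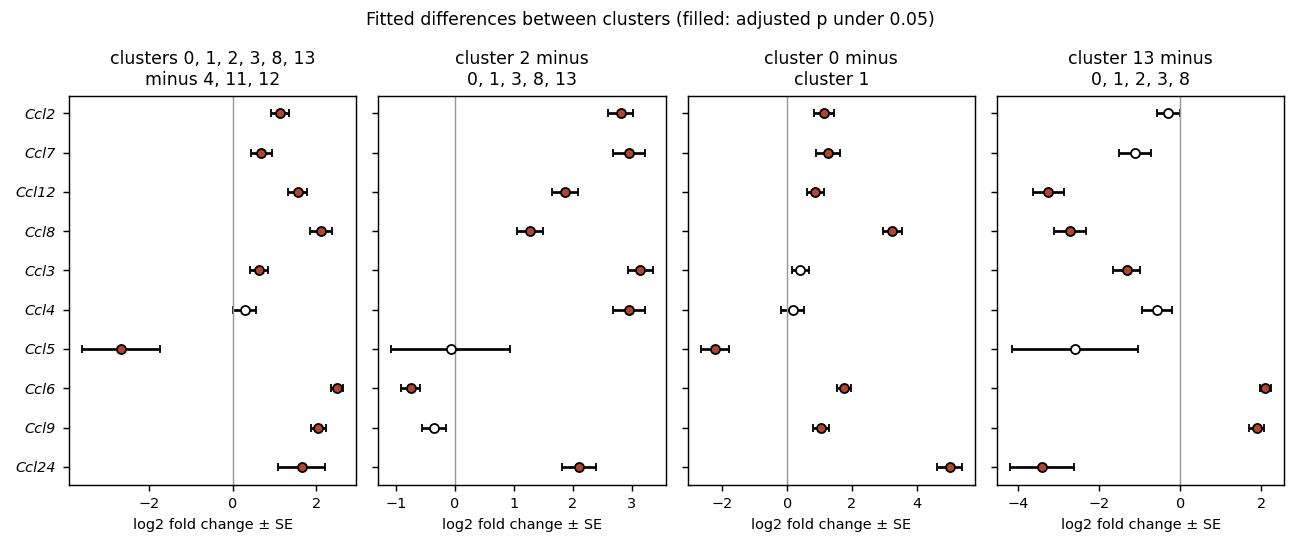
Fitted log2 fold change ± SE (x axis) of each ligand gene (y axis) in 4 of the 8 comparisons, filled where the adjusted p is below 0.05 and open where it is not. Cluster 2 has 7 ligands called higher, from 1.28 for Ccl8 to 3.14 for Ccl3, while cluster 13 has Ccl6 and Ccl9 called higher and 4 called lower.

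Clusters 0, 1, 2, 8 and 13, which carry macrophage genes, and the unnamed cluster 3 were set against the dendritic clusters 4, 11 and 12. Of the 10 genes 8 were called higher in the first set and Ccl5 was called lower, where 29.4% of all tested genes were called (10.5% higher, 18.9% lower). Ccl6 had 1198 ± 130.2 against 197 ± 59.9 CPM, a log2 fold change of 2.50 ± 0.15 (adjusted p = 1.32e-16). Ccl9 had 2.05 ± 0.18 (adjusted p = 4.31e-12), and Ccl8, at 797 ± 196 against 100.2 ± 37.0 CPM, had 2.11 ± 0.27 (4.14e-08). The values of Ccl12, Ccl2, Ccl7 and Ccl3 were 1.55, 1.13, 0.68 and 0.64, and that of Ccl24 was 1.65. Ccl5 went the other way at 17.5 ± 13.2 against 463 ± 27.9 CPM, with -2.67 ± 0.93 (adjusted p = 0.0272). Its high dendritic mean came from cluster 12, with 1318 CPM, while clusters 4 and 11 had 66.7 and 5.12. Means in the first set ran from 1.84 CPM (cluster 13) to 44.6 (cluster 1). The calls of higher ligands did not hold for every cluster of that set. Ccl24 had means of 7.85 and 5.52 CPM in clusters 1 and 13, against 39.8 and 44.4 in 4 and 11. Ccl8 had 89.0 and 90.1 CPM in clusters 1 and 13, against 144 and 126 in 4 and 11. For both genes clusters 0, 2 and 3 lay above every dendritic cluster. Ccl12 had 66.9 CPM in cluster 13, below every dendritic cluster. Ccl4 was not called at 0.29 ± 0.28 (adjusted p = 0.494). Over the 10 genes the median was 1.34, against -0.14 for all tested genes. Without clusters 3 and 8, both shallow, 9 ligands were called, and the values were 2.07 for Ccl2, 1.45 for Ccl7, 1.84 for Ccl3 and 1.17 for Ccl24, which lost its call (adjusted p = 0.161). Calls were also lost without library 1-1 (Ccl7, Ccl3 and Ccl5, adjusted p = 0.120, 0.0908 and 0.0655), without 1-2 (Ccl3, Ccl5 and Ccl24, 0.0722, 1 and 1), without 2-1 (Ccl7, Ccl3 and Ccl24, 0.208, 0.130 and 0.0576), without 2-2 (Ccl7, 0.277) and with no replicate block (Ccl7 and Ccl24, 0.0598 and 0.156). Without library 1-2 the values of Ccl2, Ccl7, Ccl8 and Ccl6 were 2.00, 2.07, 3.00 and 3.09, and without 2-2 that of Ccl24 was 3.39. At 500 UMIs per cell Ccl5 (0.0602) and Ccl24 (1) lost their calls, and the 7 other called values lay between 1.47 and 4.16. With the deepest 5% of cells removed, the values were 1.83 for Ccl2, 2.38 for Ccl7, 2.93 for Ccl12, 3.18 for Ccl8, 2.71 for Ccl9 and -3.44 for Ccl5. Of 13 dissociation stress genes, described below, 11 were lower in the first set and none higher on the log scale of the fit. That scale averages log levels over clusters. Their share of UMIs was 5.43% and 5.84% in cluster 0, 2.08% and 2.30% in 1, and 3.03% and 3.09% in 2. It was 1.47% and 2.01% in cluster 13, but 0.179% and 0.0806% in 3 and 0.0637% and 0.0573% in 8. The dendritic clusters 4, 11 and 12 had 1.60% and 2.21%, 1.69% and 2.42%, and 0.951% and 0.851%.

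Cluster 2 was set against clusters 0, 1, 3, 8 and 13, and 7 ligands were called higher and Ccl6 lower on the log scale of the fit. In this comparison 33.7% of all tested genes were called, 24.4% higher and 9.36% lower. Ccl3 had 2468 ± 97.2 against 576 ± 64.5 CPM and a log2 fold change of 3.14 ± 0.21 (adjusted p = 6.22e-15). Ccl7 had 2.95 ± 0.27 and Ccl4 2.94 ± 0.27, with 4674 ± 88.3 against 1340.3 ± 67.3 CPM for Ccl4. Ccl2 had 3563 ± 68.1 against 735 ± 44.9 CPM, a log2 fold change of 2.81 ± 0.22 (adjusted p = 4.35e-13). Ccl24 and Ccl12 had 2.10 and 1.87. Ccl6 had 595 ± 97.1 against 1319 ± 137 CPM and -0.75 ± 0.17 (adjusted p = 0.000594), and Ccl9 and Ccl5 were not called at -0.35 and -0.07. For Ccl8 the fit gave 1.28 ± 0.22, an average of log levels over clusters, while its mean CPM went the other way at 697 ± 5.68 against 817 ± 234, with cluster 3 the highest. The median of the 10 genes was 1.98, against 0.30 for all genes. Without clusters 3 and 8 these 8 calls held, 9 ligands were called in all, and the values were 1.90 for Ccl2, 2.29 for Ccl7, 1.92 for Ccl3, 1.47 for Ccl4, 2.03 for Ccl8 and 3.01 for Ccl24. Ccl6 lost its call without library 1-2 (adjusted p = 0.215), Ccl24 moved to 2.90 without that library, and Ccl12 to 2.49 without 2-1.

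The other lists moved in the same cluster. Of 14 tested genes of the NF-kappaB pathway, a transcription factor system that switches on inflammatory genes, 13 were called higher in cluster 2 and none lower, with a median of 2.25. The largest were Tnfaip3 (4.39), Rel (3.76), Tnip3 (3.29) and Nfkbid (3.16). Of 10 tested chemokine genes outside the CC family 7 were higher, led by Cxcl13 (5.14), Cxcl2 (3.75), Cxcl10 (3.73) and Cxcl1 (3.26). Among receptor genes, Ccrl2 (1.87) and Ccr1 (1.41) were called higher. All 13 dissociation stress genes, immediate-early and heat shock genes that tissue digestion can induce, were higher too, with a median of 2.17. They made up 3.03% and 3.09% of the UMIs of cluster 2, 5.43% and 5.84% in cluster 0, 2.08% and 2.30% in cluster 1, but 0.179% and 0.0806% in cluster 3 and 0.0637% and 0.0573% in cluster 8. Their part in the ligand levels was not tested. Within clusters, Ccl3-positive and Ccl4-positive cells had a higher mean stress share than negative cells in both replicates of all 5 clusters compared (0, 1, 2, 4 and 5). In cluster 1 it was 2.47% and 2.74% against 1.65% and 1.86% for Ccl3, and 2.43% and 2.73% against 1.61% and 1.66% for Ccl4. Ccl2-positive cells had the higher share in both replicates of clusters 0, 1, 4 and 5. In cluster 2 the sign was mixed for Ccl2, with 3.11% and 2.98% in positive against 2.73% and 3.17% in negative cells. The sign for other ligands depended on the cluster. In cluster 0 Ccl6-positive cells had the lower share, with 5.86% and 5.81% against 5.90% and 6.71%. Ccl9-positive cells there had 5.79% and 5.80% against 6.12% and 6.69%. Both ligands went with the higher share in clusters 1, 2 and 4. Ccl7-positive cells had the lower share in both replicates of clusters 1 and 2 and the higher share in cluster 4.

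Cluster 0 and cluster 1, the resident-macrophage-like cells and the macrophages with no subtype, were the largest clusters, with a median of 4404 and 5115 UMIs per cell. Of the 10 ligands 7 were called higher in cluster 0 and Ccl5 lower, where 25% of all tested genes were called (12.4% higher, 12.5% lower). Ccl24 had 265 ± 122 against 7.85 ± 6.06 CPM and a log2 fold change of 5.01 ± 0.38 (adjusted p = 3.77e-13). Ccl8 had 875 ± 128 against 89.0 ± 18.1 CPM and 3.24 ± 0.29 (adjusted p = 2.94e-11). Ccl6 had 1.75 ± 0.20 and Ccl7, Ccl2, Ccl9 and Ccl12 had 1.26, 1.13, 1.04 and 0.87. Ccl3 and Ccl4 were not called, with 0.40 and 0.16, and had 1473 ± 194 against 1069.7 ± 66.1 and 3112 ± 257 against 2671 ± 215 CPM. Ccl5 had 10.4 ± 6.10 against 44.6 ± 28.7 CPM and -2.24 ± 0.43 (adjusted p = 9.51e-05), but 0.50 (0.759) at 500 UMIs per cell. The median over the 10 genes was 1.08, against 0.00 for all genes. Of the 13 stress genes 12 were higher in cluster 0, and of the 14 NF-kappaB genes 1 was higher and 6 lower. Without library 1-2 only 4 ligands were called, with Ccl2, Ccl7, Ccl12 and Ccl9 lost (adjusted p = 0.299, 0.689, 0.758 and 0.142), and without 2-2 Ccl2 and Ccl12 were lost (0.125 and 0.423) while Ccl8 and Ccl24 moved to 3.83 and 5.95. Ccl12 also lost its call with no replicate block (adjusted p = 0.0979), and Ccl2, Ccl7 and Ccl12 lost theirs with DESeq2's Wald test (0.0820, 0.178 and 0.192).

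Cluster 13 was set against clusters 0, 1, 2, 3 and 8, the unnamed cluster 3 among them. Ccl6 and Ccl9 were called higher in it and 4 other ligands lower, where 16.9% of tested genes were called (12.8% higher, 4.13% lower). Ccl6 had 3229 ± 127 against 792 ± 131 CPM and a log2 fold change of 2.10 ± 0.15 (adjusted p = 5.16e-14). Ccl9 had 2234 ± 71.2 against 633 ± 172 CPM and 1.89 ± 0.18 (adjusted p = 2.91e-10). Ccl12 had -3.26 ± 0.39, Ccl8 -2.72 ± 0.39, Ccl24 -3.41 ± 0.80 and Ccl3 -1.33 ± 0.33. Ccl2, Ccl7, Ccl4 and Ccl5 were not called, with Ccl7 at 319 ± 71.4 against 1121 ± 147 CPM (adjusted p = 0.0505). The median of the 10 was -1.22, against 0.25 for all genes. The receptor gene Ccr2 was higher by 5.13 in this cluster, at 1075 ± 339 CPM, and 10 of 13 stress genes were higher on the log scale of the fit. As a share of UMIs, however, the stress genes made up 1.47% and 2.01% in cluster 13. That was less than in clusters 0, 1 and 2 and more than in clusters 3 and 8, in both replicates. Without clusters 3 and 8 the 6 calls held and 9 ligands were called in all. At 500 UMIs per cell Ccl8, Ccl3 and Ccl24 lost their calls (adjusted p = 0.0541, 0.238 and 0.211). Ccl3 moved to -3.03 without clusters 3 and 8 and to -3.28 without library 1-2, Ccl24 to -8.26 without 1-2 and -2.76 without 2-2, Ccl8 to -3.82 without 2-2 and Ccl12 to -2.40 without 2-1.

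Clusters 3 and 8 were both shallow and differed in 2 ligands, Ccl8 and Ccl12, where 6.08% of tested genes were called (4.1% higher, 1.98% lower in cluster 3). Ccl8 had 2894 ± 1132 against 137 ± 38.6 CPM and a log2 fold change of 4.42 ± 0.42 (adjusted p = 4.31e-10). It moved to 5.04 without library 2-1. Ccl12 had 758 ± 462 against 166 ± 209 CPM and 2.18 ± 0.45 (adjusted p = 0.00116). The Ccl12 call was lost without library 1-2 (1.75, adjusted p = 0.186), without 2-2 (1.86, 0.199) and with no replicate block (0.0502), and the value was 5.005 without 2-1. The other 8 ligands were not called. Ccl2, for example, had 183 ± 86.0 against 221 ± 54.7 CPM and -0.28 ± 0.57. Pf4, a CXC chemokine gene, was higher by 4.22 in cluster 3. The median of the 10 was 0.99, against 0.55 for all genes, with the erythroid markers of cluster 3 in replicate 1 given above. Of the 13 stress genes 2 were higher in cluster 3. The part of either was not tested.

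Among dendritic clusters, the mature-dendritic-like cluster 12 had more Ccl5 and less Ccl4, Ccl6 and Ccl8 than clusters 4 and 11, where 20.4% of tested genes were called (9.61% higher, 10.8% lower). Ccl5 had 1318 ± 87.2 against 35.9 ± 1.72 CPM and a log2 fold change of 6.28 ± 0.37 (adjusted p = 2.08e-16), and 8.71 without library 1-2. Ccl4 had 178 ± 139 against 1488 ± 417 CPM and -3.20 ± 0.48 (adjusted p = 2.57e-06), and -4.29 without library 1-2. Ccl6 had -1.73 ± 0.36 and Ccl8 -2.27 ± 0.67. The 6 others were not called. Ccl22 (5.01) and Ccl17 (2.54), CC ligands outside the 10 that attract Ccr4-bearing T cells, were higher as well, and so was Ccr7 (6.68), the receptor that takes dendritic cells to lymph nodes. The median of the 10 was -0.76, against -0.26 for all genes. Of the 13 stress genes 11 were lower in cluster 12 and none higher, with a median of -1.25, and their part was not tested. Without library 2-2 only 2 ligands were called, as Ccl6 (adjusted p = 0.0959) and Ccl8 (0.0766) were lost. Ccl8 was also lost without 2-1 (0.0932), moved to -2.97 without 1-2, and at 500 UMIs per cell was at 2.50 (0.480). Ccl6 moved to -2.67 without 1-2.

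The monocyte-like cluster 5 had more Ccl6 and less of 5 ligands than the macrophages of cluster 1, where 14.1% of tested genes were called (7.36% higher, 6.71% lower). Ccl6 had 881 ± 10.6 against 381 ± 105 CPM and a log2 fold change of 1.23 ± 0.20 (adjusted p = 2.35e-05). Ccl12 had 81.5 ± 49.1 against 524 ± 51.6 CPM and -2.81 ± 0.32 (adjusted p = 1.84e-08). Ccl4 had -1.77 ± 0.37, Ccl5 -2.03 ± 0.51, Ccl7 -1.21 ± 0.39 and Ccl3 -0.86 ± 0.27. Ccl2 was not called, at 1058 ± 16.8 against 823 ± 89.0 CPM. The median of the 10 was -0.31, against 0.00 for all genes, and 1 of 13 stress genes was higher and 4 lower. Without library 1-2 only 3 were called, with Ccl3 (adjusted p = 0.320), Ccl5 (0.149) and Ccl6 (0.0653) lost. Ccl7 was lost without 1-1 (0.0908) and 2-2 (0.194), and moved to -1.90 without 1-2. Ccl3 was lost without 2-2 (0.0884), and Ccl5 moved to -3.20 without 2-1. With no replicate block Ccl7 (0.0801) and Ccl3 (0.0597) were lost.

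The neutrophil-like cluster 7 had more Ccl3, Ccl4, Ccl12 and Ccl7 and less Ccl9 than cluster 5, where 20.5% of tested genes were called (10.8% higher, 9.64% lower). Ccl3 had 5977 ± 1001 against 597 ± 174 CPM and a log2 fold change of 3.396 ± 0.289 (adjusted p = 1.23e-11). Ccl4 had 4583 ± 391 against 795 ± 351 CPM and 2.61 ± 0.38 (adjusted p = 1.61e-06). Ccl12 had 2.82 ± 0.36 and Ccl9 -1.59 ± 0.31. Ccl7 had 723 ± 655 against 269 ± 101 CPM and 1.31 ± 0.44 (adjusted p = 0.0310), and was at -0.29 (0.8287) without library 2-2. Of the 14 NF-kappaB genes 6 were higher and 1 lower, and Ccr1, a receptor of Ccl3, Ccl6 and Ccl9, was higher by 1.99 in cluster 7. Of the 13 stress genes 8 were higher and none lower, and cluster 7 had the uneven erythroid markers given above, and the part of either was not tested. The median of the 10 was 0.91, against -0.07 for all genes. Without library 1-2 only 2 ligands were called, as Ccl7 (0.163), Ccl12 (1.49, 0.142) and Ccl9 (0.141) were lost. Ccl7 was lost with no replicate block (0.0514) and Ccl9 at 500 UMIs per cell (0.0695).

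Co-expression was measured per cell at 2000 UMIs, as the number of cells positive for both genes over the number expected if the genes were independent within each cluster and library. Of 44 pairs with at least 5 expected cells 29 had a ratio above 1, with a median of 1.08 and a range from 0.877 to 1.497. The 6 pairs among the neighbours Ccl2, Ccl7, Ccl12 and Ccl8 all lay above 1, with a median of 1.22. Ccl2 and Ccl7 were found together in 657 cells against 489 expected, a ratio of 1.39 in replicate 1 and 1.30 in replicate 2. Ccl3 and Ccl4 were found together in 801 against 618 (1.25 and 1.35), and Ccl6 and Ccl9 in 781 against 642 (1.25 and 1.17). Pairs of Ccl3 or Ccl4 with Ccl6 or Ccl9 lay between 0.929 and 0.972, but without thinning Ccl3 with Ccl6, Ccl3 with Ccl9 and Ccl4 with Ccl9 stood at 1.03, 1.01 and 1.01. These ratios describe cells of the same libraries and carry no test.

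**Figure D4:**
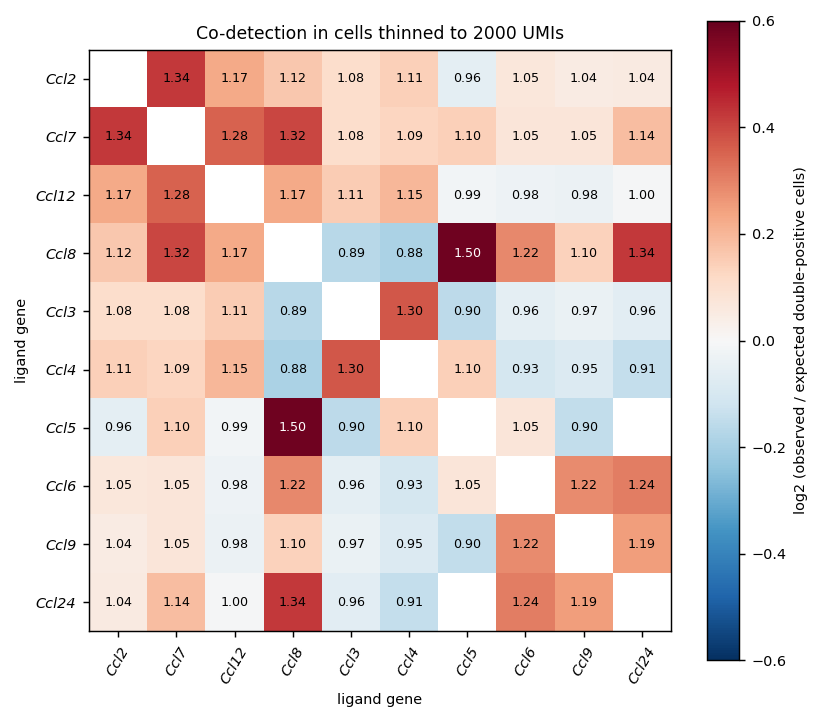
Ratio of observed to expected cells positive for both genes, for each pair of ligands in 2357 cells thinned to 2000 UMIs, with colour on a log2 scale; blank squares off the diagonal had fewer than 5 expected cells. Ccl2 with Ccl7 and Ccl3 with Ccl4 stand at 1.34 and 1.30, and Ccl8 with Ccl4 at 0.877.

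Ccl24 on chromosome 5 was found together with Ccl8 more often than expected (125 cells against 93.1, ratios of 1.25 and 1.39 in the replicates), and with Ccl6 (1.25 and 1.23) and Ccl9 (1.18 and 1.19). Ccl8 and Ccl4 were found together less often than expected, in 204 against 233 cells (0.862 and 0.894), as were Ccl8 and Ccl3 (0.936 and 0.837). The ratio of Ccl8 and Ccl5, 1.497, rested on 15 cells, 13 of them in replicate 1. Within cluster 2, where most cells had both, Ccl2 and Ccl7 had 1.07. In cluster 0 they had 1.29 and in cluster 1 they had 1.69, with 101 cells observed against 59.9 expected. Ccl3 and Ccl4 had 1.38, 1.22 and 1.15 in clusters 0, 1 and 2, and Ccl8 and Ccl4 had 0.851, 0.875 and 0.864. With at least 2 UMIs needed for a positive cell the ratios were 1.53 for Ccl2 and Ccl7, 1.55 for Ccl3 and Ccl4, 1.44 for Ccl6 and Ccl9, and 0.737 for Ccl8 and Ccl4. Without thinning they were 1.28, 1.23, 1.18 and 0.962.

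The neighbours share some sequence, which bears on how reads can be assigned. Coding parts of Ccl3 and Ccl4 were identical at 68.1% of aligned positions, gaps counted, those of Ccl7 and Ccl8 at 64.7%, and those of Ccl2 and Ccl7 at 46.2%. The coding part of Ccl2 is longer, with 444 bases against 291 in Ccl7. With gaps left out the values were 71.1%, 68.8% and 72.1% in the same order. The longest shared run was 23 bases between transcripts of Ccl2 and Ccl7, before the coding part, and 25 bases between those of Ccl6 and Ccl9, after it. No 12-base run was shared by Ccl3 and Ccl4.

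**Figure D5:**
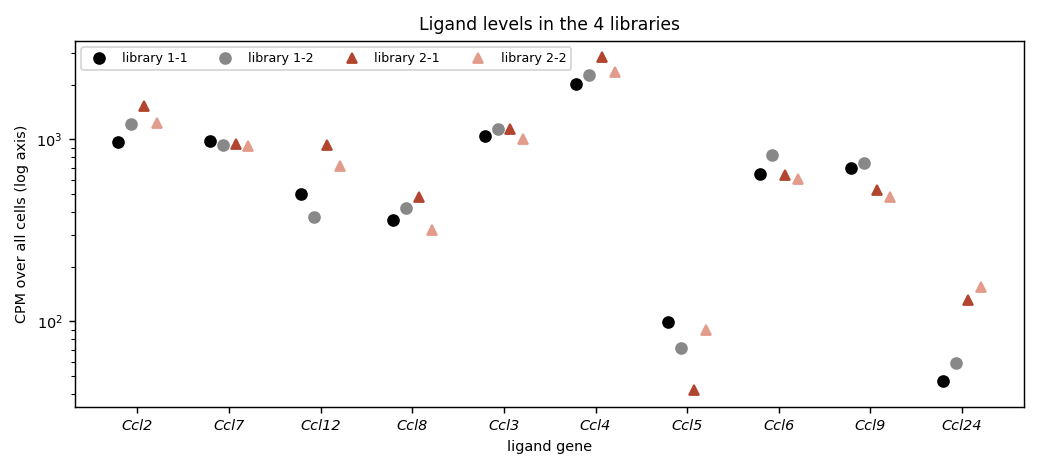
CPM over all cells of a library (y axis, log scale) for each ligand gene (x axis), with circles for the 2 libraries of biological replicate 1 and triangles for those of replicate 2. Ccl24 and Ccl12 lie higher in both libraries of replicate 2, and Ccl9 lies lower.

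Some ligands differed between the biological replicates themselves. Ccl24 had 47.1 and 59.1 CPM in libraries 1-1 and 1-2 and 130.3 and 154 in 2-1 and 2-2, so that the mean of replicate 2 was 2.68 times that of replicate 1. These values take all cells of a library together, whatever its mix of clusters. Within clusters Ccl24 was higher in replicate 2 in 11 of 14, with 179 and 351 CPM in cluster 0. Over the clusters, the median log2 ratio of replicate 2 to replicate 1, with 10 CPM added to both, was 0.72. Ccl12 had 502 and 377 CPM against 932 and 712, a ratio of 1.87, and was higher in replicate 2 in 12 of 14 clusters. Ccl9 went the other way with 695 and 745 against 525 and 483 CPM (0.700), and Ccl6 was higher in replicate 2 in 1 of 14 clusters. The libraries of the replicates overlapped for Ccl7, Ccl8, Ccl3 and Ccl5. These are descriptions of the libraries, with no test.

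Genes with a like pattern were ranked over the 14 clusters by Pearson r of log2(CPM + 10), the smaller of both replicates, among 8227 genes. These r describe 14 clusters that share libraries and depth. For Ccl2 they were Cebpb (0.84), Arid5a (0.83) and Lfng (0.83), and for Ccl7 they were S1pr1 (0.85), Ccl2 (0.80) and Man1a (0.79). Ccl12 was most like St3gal6 (0.91), Ctla2b (0.85) and Cdr2 (0.84), and Ccl8 most like Chp2 (0.89), Pf4 (0.88) and Cbr2 (0.83). Ccl3 was followed by Tnf (0.90), which encodes tumour necrosis factor, Cpeb2 (0.89) and Plek (0.88), and Ccl4 by Ugcg (0.92), Susd6 (0.90) and Jund (0.89). For Ccl5 the values were lower, with Sac3d1 (0.77), Galnt12 (0.76) and Tmem63b (0.74). Ccl6 and Ccl9 were each other's closest gene (0.85), Ccl6 followed by Pltp (0.80) and Lyz2 (0.80) and Ccl9 by Casp8 (0.78) and Ccdc109b (0.78). Ccl24 was most like the resident macrophage genes Cbr2 (0.84) and Folr2 (0.81) and Npl (0.83).

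The 9 other CC ligand genes of the table were sparse. Ccl17 had 304 UMIs in 38 cells and Ccl22 had 285 in 75 cells, both with their highest level in cluster 12, at 153 ± 123 and 661 ± 155 CPM. The unnamed cluster 3 had nearly as much Ccl17, with a mean of 149.5 CPM. Ccl25, Ccl11 and Ccl27a had 83, 78 and 42 UMIs, Ccl19 had 20, Ccl1 had 4 and Ccl21a had 2, and Ccl28 had none. Of the receptors, Ccr2 was highest in cluster 13 and Ccr1 in cluster 7 (896 ± 30.7 CPM). In cluster 2, where Ccl2 was highest, Ccr2 had 28.4 ± 1.18 CPM, against 414 ± 15.8 in cluster 1 and 443 ± 98.0 in cluster 5.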

How the data were processed

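Single-cell 3′ RNA libraries of aortic leukocytes were read as raw UMI counts per gene and cell, as deposited by the authors for the cells they kept as myeloid, with their cluster numbers. Per the labels' protocols reads were mapped to mm10 with Cell Ranger 3.0.2, and the submitters' processing notes name Seurat 3.1.1. Cell filters and doublet treatment are not stated there, and no doublet caller was run. The percent of UMIs from mitochondrial genes per cell, deposited by the authors, entered no test. The deposited log-normalized matrix was not used.

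Counts were summed by cluster and biological replicate (28 sums) and tested with edgeR 4.0.16 (R 4.3.3; low-count filter, TMM scaling, cluster terms, biological replicate as a block, 13 residual degrees of freedom), with Benjamini-Hochberg adjustment over 6657 genes and a threshold of 0.05. The block stands because each replicate holds cells of every cluster, by the deposited cluster numbers. The labels' titles give the replicate of each library. DESeq2 1.42.0 was an alternative. Cells were thinned for shares, to 500 UMIs with seed 1 and to 2000 UMIs with another fixed seed. The edgeR test of cluster 0 against cluster 1 was also tried on counts simulated from the main fit, with no result given here. Named genes are the 10 ligands, up to 4 called genes per list and comparison by size, and the 3 genes of most similar pattern. Some results for the receptor list are not reported here. The ligands and lists were chosen with earlier results of these data known. The level of Ccl5 without cells carrying T and NK cell markers was added after seeing the data. UMIs limit precision, and no interval is given for the shares of positive cells. The SE and SD rest on sums of only 2 biological replicates.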

Additional observations from a re-analysis of the deposited data

How the results depend on the processing

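Of the 48 ligand comparisons that were called, 25 kept their direction and call under every alternative run. Of the 611 alternative values behind these comparisons 544 kept the call, 64 lost it and 3 turned direction. DESeq2 size factors, no low-count filter and the fit to 9 clusters lost none where they could be run. Calls lost or turned were 15 without library 1-2, 9 without 2-2, 4 without 1-1 and 4 without 2-1, 10 at 500 UMIs per cell, 8 with DESeq2's Wald test and 7 with 4 libraries as samples. With no replicate block 7 were lost (Ccl7 in cluster 7 against 5, for example, had an adjusted p of 0.0514 from edgeR), and 1 ligand in place of 2 was called between clusters 3 and 8. Turned in direction were Ccl5 in cluster 0 against 1 (0.50) and Ccl8 in cluster 12 against 4 and 11 (2.50), both at 500 UMIs per cell, and Ccl7 in cluster 7 against 5, which ranged from -0.29 to 1.38 when a library was left out. The cause was not tested. Calls lost that are not given above were, with their adjusted p: for clusters 0, 1, 2, 3, 8 and 13 against 4, 11 and 12 Ccl7 with the Wald test (0.146) and Ccl5 with 4 libraries (0.0972), for cluster 0 against 1 Ccl2, Ccl7 and Ccl12 with 4 libraries (0.0725, 0.130 and 0.199), for cluster 12 Ccl8 with 4 libraries (0.0948) and Ccl8 and Ccl6 with the deepest 5% of cells removed (0.680 and 0.195), for cluster 5 against 1 Ccl7, Ccl3 and Ccl5 with the Wald test (0.241, 0.185 and 0.0828), Ccl3 with 4 libraries (0.0602) and Ccl5 at 500 UMIs (0.632), and for cluster 7 against 5 Ccl7 with the Wald test, 4 libraries and 500 UMIs (0.132, 0.272 and 0.241).

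At 500 UMIs per cell, where fewer counts remain, the genes called were 307 (clusters 0, 1, 2, 3, 8 and 13 against the dendritic clusters, 1956 with all counts), 427 (cluster 2, 2244), 294 (cluster 0 against 1, 1662), 108 (cluster 13, 1124), 258 (3 against 8, 405), 150 (12, 1360), 203 (5 against 1, 937) and 414 (7 against 5, 1362). Without clusters 3 and 8 cluster 2 had 1084. Leaving out a library gave, in the same order, 1150 to 1755, 1088 to 2002, 592 to 1547, 463 to 970, 145 to 342, 719 to 1130, 316 to 864 and 579 to 1170 genes, and 6 to 8, 7 to 8, 4 to 8, 6 to 7, 1 to 3, 2 to 5, 3 to 7 and 2 to 5 ligands. Ligands called were 5 with the Wald test and 5 with 4 libraries for cluster 0 against 1, 3 with the Wald test for 5 against 1, 3 at 500 UMIs for 7 against 5, and with no filter 4 for 3 against 8 and 7 for 12. Of 70 alternative levels 14 moved by more than the replicate spread, and of 305 co-expression ratios 121 moved.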
